A study of Mus musculus with 4 samples.

Results

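The FGF-ERK feedback genes examined here are 10 mouse genes that fibroblast growth factor signalling through the kinase ERK is known to induce: Spry1, Spry2, Spry4, Spred1, Spred2, Dusp4, Dusp5, Dusp6, Etv4 and Etv5. They were chosen by symbol, and each symbol was represented by the probe set with the highest mean level, which gave all 10 of the 19938 genes on the array a value. The cells were cultures from C57BL/6 mice, with 1 array in each of 4 groups. MSC (FGF+) and MSC (FGF-) were plastic-adherent mesenchymal stem cells flushed from femur and tibia marrow and grown with 1 ng/ml of basic fibroblast growth factor (bFGF, FGF2), or without it, in otherwise the same serum-containing medium. Osteoblasts were released by enzymes from calvariae (the skull vault) of newborns and grown in another serum-containing medium without a stated growth factor, with cells of the last digestions pooled. Mouse embryonic stem (ES) cells were labelled as a control with no culture protocol. The labels do not state the age of the marrow donors, the number of animals or the length of exposure to bFGF.

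When FGF binds its receptor, adaptors activate Ras and a chain of kinases that ends in ERK. Active ERK switches on genes whose products then damp the same chain, so that levels of these transcripts are often read as a gauge of recent ERK activity. Sprouty proteins (Spry) act between the receptor and Raf, Spred proteins act on Ras through neurofibromin, and the dual-specificity phosphatases (Dusp) remove phosphate from ERK itself. Etv4 and Etv5 are ETS transcription factors that carry the FGF signal into the nucleus and are not inhibitors.

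Among the members, Dusp5 had the largest positive difference with bFGF, 0.35, and Dusp6, a phosphatase for the same kinase, a negative one, -0.23. Both are small. Of genes above the background floor defined below, 13.7% were as high as Dusp5 or higher and 19.4% as low as Dusp6 or lower. Their promoters are set side by side as a description, with motifs chosen after the data were seen. No link of the sequences to bFGF was tested. The 250 bases before the start site are given 5′ to 3′ from the RefSeq table (GRCm38.p6), for Dusp5 at chr19:53528895-53529144 on the plus strand and for Dusp6 at chr10:99262981-99263230 on the plus strand. Capitals mark CArG boxes, the sequence bound by serum response factor.
Dusp5: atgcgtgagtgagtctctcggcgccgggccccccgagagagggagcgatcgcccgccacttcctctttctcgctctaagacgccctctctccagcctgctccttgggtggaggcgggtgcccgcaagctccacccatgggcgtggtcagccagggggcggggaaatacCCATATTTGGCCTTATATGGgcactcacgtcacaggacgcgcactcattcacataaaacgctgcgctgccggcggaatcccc
Dusp6: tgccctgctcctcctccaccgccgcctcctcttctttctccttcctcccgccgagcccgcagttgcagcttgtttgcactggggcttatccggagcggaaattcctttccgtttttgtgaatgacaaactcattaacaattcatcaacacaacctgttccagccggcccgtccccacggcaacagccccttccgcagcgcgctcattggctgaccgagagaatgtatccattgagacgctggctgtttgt
The Dusp5 window held 2 CArG boxes end to end, at -82 to -73 and -72 to -63 from the start site, and the Dusp6 window held 0. Of all 32851 promoter windows of this length, 1.47% held such a box. RefSeq windows were found for 7 of the 10 members, with Spry4, Dusp4 and Etv4 not among them, and Dusp5 was the member with a match. An ETS site of the form CCGGAA and an AP-1 site (TGANTCA) were searched on both strands in the same 8 windows of the members. So were a cyclic AMP response element (TGACGTCA) and an EGR site (GCGTGGGCG). Each gave 0 matches, against 12%, 6.75%, 1.55% and 0.536% of all windows in that order. Other forms, such as GGAA with other flanking bases, were not searched, so 0 matches does not mean that a window lacks an ETS site. A GC box (GGGCGG) was in 5 of the 8 and in 32.7% of all windows. Each letter match is a description of the window and not a tested binding site.

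Values are the authors' deposited log2 levels, so a difference of 1 is 2-fold. A level was read against a floor, the median of each array's probe sets with a gene symbol, which was 6.32 in MSC (FGF+), 6.29 in MSC (FGF-), 6.46 in osteoblasts and 6.46 in ES cells. With 1 array per group no test was possible, no replicate error exists, and the number of arrays limits the precision. As a technical yardstick, probe sets of the same gene disagreed on the MSC (FGF+) minus MSC (FGF-) difference with an SD of 0.27 per probe set, or 0.16 when taken from the quartiles. In the other pairs of arrays that SD was 0.37 to 0.51, or 0.20 to 0.25 when taken from the quartiles. It does not measure variation between cultures, and differences of that order cannot be separated from measurement noise here.

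The arrays differed in cell content. Macrophage markers were 2-fold or more higher in MSC (FGF+) than in MSC (FGF-) for 14 of 15 genes, with a median difference of 2.78. Their summed level was 14.00 in MSC (FGF+), 11.16 in MSC (FGF-), 15.36 in osteoblasts and 12.42 in ES cells on the log2 scale, and 14, 10, 15 and 12 of the 15 lay above the floor. Of 8 fibroblast and matrix genes, 2 were 2-fold lower in MSC (FGF+) than in MSC (FGF-), Col3a1 by -1.20 and Dcn by -1.22. Stromal markers above the floor numbered 8, 6, 10 and 9 of 11 in the same order, and Thy1 was under it in MSC (FGF+) and MSC (FGF-), at 5.54 and 6.04. Of these 11 markers 2 were 2-fold higher in MSC (FGF+) than in MSC (FGF-), Nt5e by 1.31 and Eng by 1.06. The 1 that was 2-fold lower was Pdgfrb, by -1.12. Of 8 osteoblast markers 2 were above the floor in MSC (FGF+), 4 in MSC (FGF-), 3 in osteoblasts and 4 in ES cells. In osteoblasts these were Col1a1, Col1a2 and Pth1r, at 12.60, 12.98 and 6.75. The defining genes Sp7 and Alpl were under the floor there at 5.36 and 6.03, and Sp7 was under it in every array. Of 12 ES cell markers 8 were above the floor in ES cells, with Pou5f1 at 10.63, while Zfp42, Esrrb, Fgf4 and Dppa3 were under it at 6.02, 6.40, 6.37 and 4.34. The other arrays had 1, 0 and 0 of these 12 above the floor. Lymphocyte markers were under the floor for 7 of 7 genes in every array. In bulk RNA, fewer cells of a type and less RNA per cell cannot be told apart, and the part of these other cell contents in the differences below was not tested.

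The feedback genes were not shifted together in MSC grown with bFGF. Of the 10 members 5 were higher and 5 lower in MSC (FGF+) than in MSC (FGF-), with a median difference of -0.01, against -0.00 over all 10483 genes above the floor, of which 49.4% were above 0. At 2-fold 0 members were higher and 0 lower, where 4.09% of all genes above the floor were higher and 0.467% lower. At 1.5-fold 0 were higher and 1, Spry4, was lower, where 7.45% of genes were higher and 3.34% lower. The differences ran from -0.73 to 0.35, and the direction of each member was the same under the mean of probe sets, centring, removal of a loess curve and repeated quantile normalization. The mean of probe sets can change only Spred2 and Etv5, the members with several probe sets. Centring moved each difference by at most 0.0037, less than the smallest of them, 0.0465. Both therefore say little about direction.

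**Figure D1:**
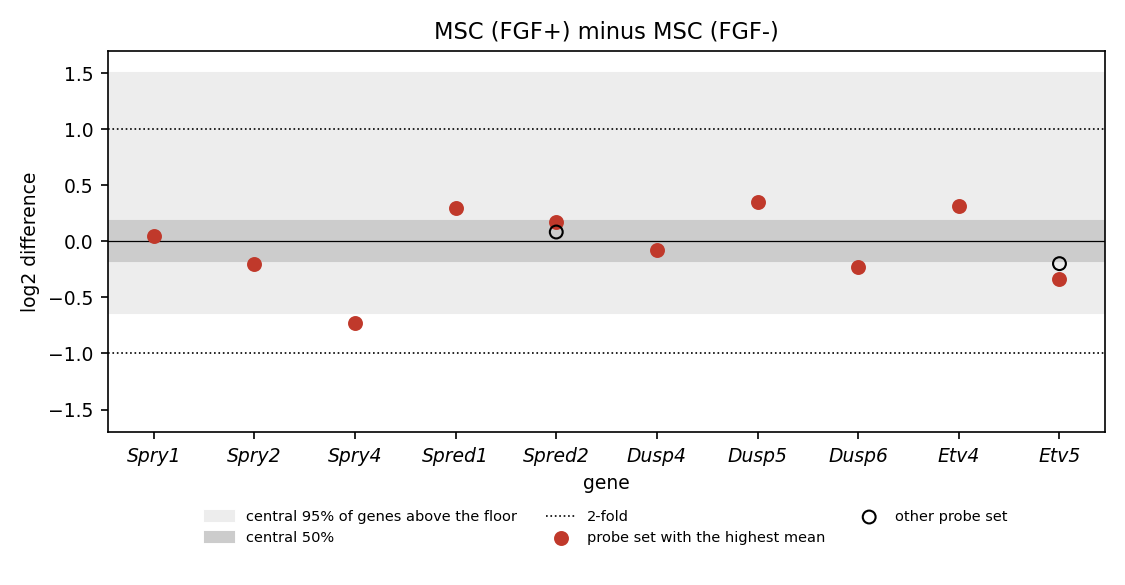
Log2 difference of each feedback gene, MSC (FGF+) minus MSC (FGF-), 1 array each. Filled points are the probe sets with the highest mean, open points the other probe sets of Spred2 and Etv5, grey bands the interquartile range and the central 95% of all genes above the floor, and dotted lines 2-fold. Spry4, at -0.73, is the member outside the 95% band, whose lower edge is -0.64.

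Of the Sprouty genes, which are receptor-level inhibitors, Spry4 was lower with bFGF. Spry4 stood at 7.29 in MSC (FGF+), against 8.01 in MSC (FGF-), 6.64 in osteoblasts and 8.62 in ES cells. It was 1.66-fold lower in MSC (FGF+) than in MSC (FGF-), and 176 of the 10483 genes above the floor, 1.68%, were as low or lower in this comparison. As a second yardstick, the central 95% of 1192 olfactory and vomeronasal receptor genes, mostly under the floor, ran from -0.97 to 0.67. The Spry4 difference of -0.73 lies inside that range. Both control arrays lay outside the MSC pair, osteoblasts below it and ES cells above it. Spry2 stood at 8.75 in MSC (FGF+), against 8.96 in MSC (FGF-), 8.38 in osteoblasts and 9.88 in ES cells. Its difference between the MSC cultures, -0.20, was smaller than the SD between probe sets, 0.27, though not than the 0.16 taken from the quartiles. The order of the 4 arrays was the same as for Spry4. Spry1 stood at 6.34 in MSC (FGF+) and 6.29 in MSC (FGF-), against 7.19 in osteoblasts and 7.60 in ES cells. Both MSC levels lay at the floor, so Spry1 gave little signal in marrow cultures, and the difference of 0.05 carries no order.

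The Spred genes, inhibitors of Ras signalling at the membrane, differed little between the MSC arrays. Spred1 stood at 9.61 in MSC (FGF+), against 9.31 in MSC (FGF-), 9.19 in osteoblasts and 9.54 in ES cells. Its range over the 4 arrays, 0.42, was the smallest of the 10 members. Spred2 stood at 9.28 in MSC (FGF+), against 9.10 in MSC (FGF-), 8.44 in osteoblasts and 8.94 in ES cells. The MSC differences were 0.30 for Spred1 and 0.18 for Spred2, and the second probe set of Spred2 gave 0.08, with the same sign.

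**Figure D2:**
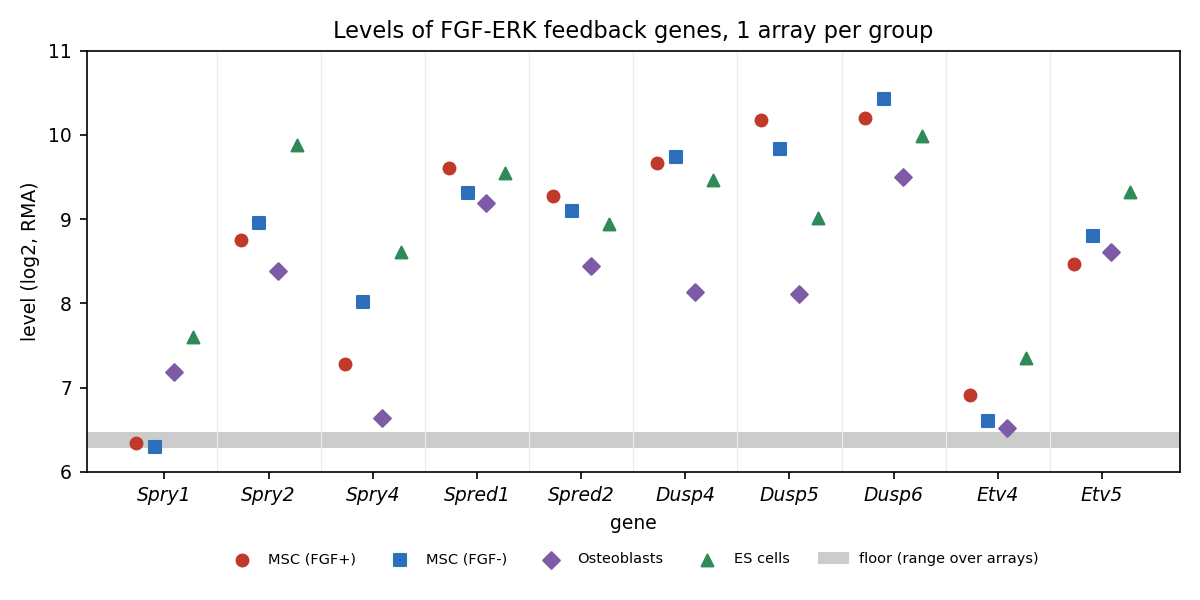
Level (log2, RMA) of each feedback gene in the 4 arrays, 1 point per array, with the range of the floors in grey. By the probe sets with the highest mean, ES cells are highest for 5 genes and osteoblasts lowest for 8. The MSC levels of Spry1, 6.34 and 6.29, lie at the floor. Levels of different genes come from different probes and cannot be ranked against each other.

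The phosphatase genes had their highest levels in the MSC arrays, with or without bFGF. For Dusp4 and Dusp6 the MSC levels exceeded those in ES cells by 0.20 to 0.44. These differences were smaller than the SD between probe sets, 0.48 for MSC (FGF+) and 0.51 for MSC (FGF-) minus ES cells. Taken from the quartiles that SD was 0.20 and 0.25, less than each of the differences, though by little in MSC (FGF+). Dusp5, which encodes a nuclear phosphatase specific for ERK, stood at 10.18 in MSC (FGF+), against 9.83 in MSC (FGF-), 8.11 in osteoblasts and 9.02 in ES cells. The difference of 0.35 between the MSC arrays, 1.28-fold, was the largest positive one among the members, and 1438 genes, 13.7% of those above the floor, were as high or higher. The promoter of Dusp5 carries the adjoining CArG boxes shown above, and their part in this difference was not tested. Dusp6, which encodes the cytoplasmic phosphatase of ERK, stood at 10.20 in MSC (FGF+), against 10.43 in MSC (FGF-), 9.50 in osteoblasts and 9.99 in ES cells. Dusp4, a nuclear phosphatase with a wider choice of kinases, stood at 9.66 in MSC (FGF+), against 9.74 in MSC (FGF-), 8.14 in osteoblasts and 9.46 in ES cells. Dusp6 and Dusp4 thus differed by -0.23 and -0.08 between MSC (FGF+) and MSC (FGF-), each within the SD between probe sets, 0.27. The difference of Dusp6 was larger than the 0.16 taken from the quartiles.

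The ETS factors had differences of opposite sign, each of the order of the SD between probe sets, 0.27, and so not separable from measurement noise. Etv4 stood at 6.92 in MSC (FGF+), against 6.60 in MSC (FGF-), 6.52 in osteoblasts and 7.35 in ES cells. It was 0.32 higher with bFGF, from levels within 1 log2 unit of the floor in all 4 arrays. Etv5 stood at 8.47 in MSC (FGF+), against 8.81 in MSC (FGF-), 8.61 in osteoblasts and 9.33 in ES cells, and was 0.34 lower with bFGF. The second probe set of Etv5 gave 7.98, against 8.18, 7.61 and 8.32 in the same order, a difference of -0.20. The identifier of the probe set with the higher mean lies between those of Ipmk and Hbs1l, and that of the second follows Tra2b, the neighbour of Etv5 in the RefSeq gene table. In that table Ipmk is not on the chromosome of Etv5, so by identifier only the second probe set is placed at the Etv5 gene. What the first probe set measures was not tested. It is the one used in the counts, the medians and the pattern search, by the rule of the highest mean. Comparisons of Etv5 with the controls are given for both.

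In the comparison with osteoblasts Dusp5 and Dusp4 differed most. In MSC (FGF+) 8 of 10 members were higher than in osteoblasts and 2, Spry1 and Etv5, lower, with a median of 0.53 against 0.09 over all genes above the floor. Of all those genes 55.3% were above 0. At 2-fold 2 members were higher, where 7.5% of genes were, and 0 lower, where 9.71% were. These were Dusp5, by 2.07 or 4.20-fold, and Dusp4, by 1.53 or 2.89-fold. For Dusp5 100 of 10798 genes, 0.926%, were as high or higher. In MSC (FGF-) 9 of 10 members were higher, where 55.5% of genes were, and Spry1 lower, with a median of 0.62 against 0.09. At 2-fold 3 were higher, where 8.17% of genes were, and 0 lower, where 13.3% were. Dusp5 was higher by 1.72, Dusp4 by 1.60 and Spry4 by 1.37, the last of which was 0.64 in MSC (FGF+). Dusp6 was above osteoblasts by 0.71 in MSC (FGF+) and by 0.94 in MSC (FGF-), and Spred2 by 0.83 and 0.66. Spry1 went the other way, at -0.85 in MSC (FGF+) and -0.89 in MSC (FGF-). Etv5 was -0.15 in MSC (FGF+) minus osteoblasts by the first probe set and 0.37 by the second, so its direction depends on the probe set. In MSC (FGF-) minus osteoblasts Etv5 was 0.19 by the first probe set and 0.57 by the second. There Etv4, Spred1 and the first probe set of Etv5, at 0.08, 0.12 and 0.19, each turned below 0 under a rescaling. Macrophage markers differed by a median of -1.05 in MSC (FGF+) minus osteoblasts and -3.80 in MSC (FGF-) minus osteoblasts. Fibroblast and matrix genes differed by medians of -2.89 in MSC (FGF+) and -2.57 in MSC (FGF-) minus osteoblasts, with 7 of 8 genes 2-fold lower in each. The part of either list in these differences was not tested.

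**Figure D3:**
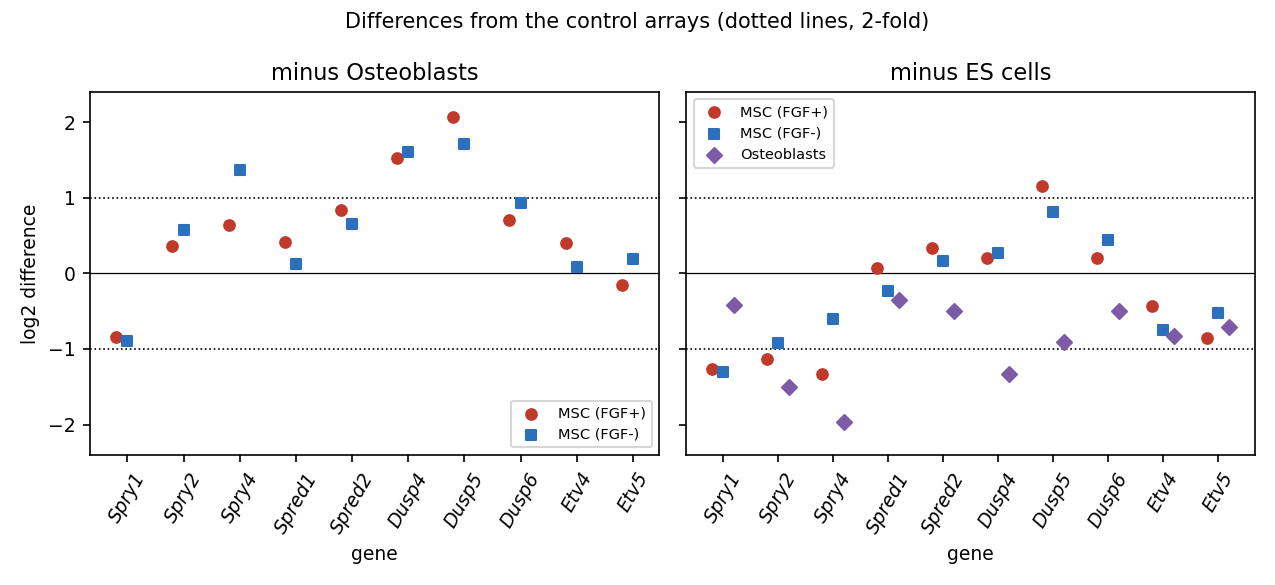
Log2 differences of each feedback gene from osteoblasts (left) and from ES cells (right), 1 array per group, with dotted lines at 2-fold. Dusp4 and Dusp5 lie above the upper line against osteoblasts in both MSC cultures, and the osteoblast points on the right are all below 0. Points in a panel share the array that is subtracted.

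Against ES cells the Sprouty genes were below 0 in both MSC cultures, 3 of 3 at 2-fold in MSC (FGF+) and 1 of 3 in MSC (FGF-). In MSC (FGF+) 5 of 10 members were higher than in ES cells and 5 lower, with a median of -0.18 against 0.12 over all genes above the floor. Of all those genes 57.2% were above 0. At 2-fold 1 member was higher, where 11.3% of genes were, and 3 were lower, where 10.6% were. The lower ones were the Sprouty genes, Spry4 by -1.33, Spry1 by -1.26 and Spry2 by -1.13, and the higher one was Dusp5 by 1.16, which was 0.98 with a loess curve removed. The first probe set of Etv5 also passed 2-fold with a loess curve removed, at -1.06, and with repeated quantile normalization, at -1.01. In MSC (FGF-) 4 members were higher, where 55.8% of genes were, and 6 lower, with a median of -0.38 against 0.10. At 2-fold 0 were higher, where 10.4% of genes were, and 1 was lower, where 11.8% were, which was Spry1 by -1.31. Spry2 and Spry4 differed by -0.92 and -0.60 in MSC (FGF-), and Dusp5, Dusp6 and Dusp4 by 0.81, 0.44 and 0.28. In MSC (FGF+) Dusp6 and Dusp4 differed by 0.21 and 0.20, and by 0.03 and 0.01 with a loess curve removed. The SD between probe sets there was 0.48, or 0.20 when taken from the quartiles. Etv4 and Etv5 were lower than in ES cells in MSC (FGF+), by -0.43 and -0.86, and in MSC (FGF-), by -0.75 and -0.52, and the second probe set of Etv5 gave -0.34 and -0.14. Macrophage markers differed by a median of 2.21 in MSC (FGF+) minus ES cells and -0.44 in MSC (FGF-) minus ES cells, and fibroblast and matrix genes by -1.44 and -1.16. Their part was not tested.

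Osteoblasts had lower levels than ES cells for all 10 members, under each rescaling tried and for each probe set. The median difference was -0.77 against 0.03 over all 10927 genes above the floor, of which 51.5% were above 0. At 2-fold 0 members were higher, where 12.3% of genes were, and 3 were lower, where 8.83% were. Spry4 was 3.93-fold, Spry2 2.83-fold and Dusp4 2.51-fold lower in osteoblasts. Only 228 genes, 2.09% of those above the floor, were as low as Spry4 in this comparison. The smallest differences were those of Spred1 (-0.36) and Spry1 (-0.42). Etv5 differed by -0.71 by either probe set. The macrophage marker list lay at a median of 3.32 in osteoblasts minus ES cells and the fibroblast and matrix list at 1.11, and their part was not tested. Osteoblasts were the lowest array for 8 of the 10 members, where 30.2% of all genes above the floor in any array had their lowest level there. This count depends on the probe set of Etv5. By its second probe set osteoblasts were lowest for Etv5 too, at 7.61 against 7.98 in MSC (FGF+). The comparisons with osteoblasts and ES cells share arrays and are not independent of one another.

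Genes around the members were taken from lists of the pathway. Of 18 other feedback genes 10 were above 0 and 8 below in MSC (FGF+) minus MSC (FGF-), 16 of them above the floor, with a median of 0.11 and 0 at 2-fold. The largest difference above the floor was that of Dusp1, a nuclear phosphatase of stress kinases and ERK, at 10.89 in MSC (FGF+), against 9.93 in MSC (FGF-), 10.82 in osteoblasts and 9.50 in ES cells. The lowest was that of Rasa1, a GTPase activator of Ras, at -0.44. Dusp1 thus differed by 0.96 between the MSC arrays, while Dusp4, Dusp5 and Dusp6 lay between -0.23 and 0.35.

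Of 12 FGF receptors, coreceptors and ligands 9 were above the floor, of which 6 lay below 0 and 3 above in MSC (FGF+) minus MSC (FGF-), with a median of -0.34 and 0 at 2-fold. Over all 12, under-floor genes included, 9 lay below 0. The ligand Fgf10 stood at 7.44 in MSC (FGF+), against 8.09 in MSC (FGF-), 5.19 in osteoblasts and 7.87 in ES cells. Fgfr1, the main FGF receptor of mesenchymal cells, stood at 8.03 in MSC (FGF+), against 7.76 in MSC (FGF-), 9.87 in osteoblasts and 9.80 in ES cells. The difference of Fgfr1 from osteoblasts was -1.85 in MSC (FGF+) and -2.11 in MSC (FGF-), in the comparisons where Dusp4 and Dusp5 were higher. For Fgfr2 it was -2.04 in MSC (FGF+) and -1.63 in MSC (FGF-). Adaptors and core kinases, of which 14 of 20 had a value, lay between -0.39 for Gab1 and 0.30 for Sos2, with a median of 0.15.

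Downstream, 18 of 20 ERK-induced genes that are not feedback regulators lay above 0 in MSC (FGF+) minus MSC (FGF-), where 49.4% of all genes above the floor did, with a median of 0.42. At 2-fold 1 of the 20 was higher, a share near the 4.09% of all genes. That gene was Fosb, a component of AP-1, at 9.50 in MSC (FGF+), against 8.20 in MSC (FGF-), 8.78 in osteoblasts and 6.65 in ES cells. Hbegf, a ligand of the EGF receptor, had the lowest difference, -0.53. Of 9 other ETS factors 6 were above 0, with a median of 0.08. Ets2 stood at 10.05 in MSC (FGF+), against 8.51 in MSC (FGF-), 9.10 in osteoblasts and 8.08 in ES cells, higher by 1.54, and Erf, an ETS repressor, had the lowest difference of -0.39. For Dusp1, Fosb and Ets2 the levels were higher in MSC (FGF+) and osteoblasts than in MSC (FGF-) and ES cells, the order that the summed macrophage markers also split, at 14.00 and 15.36 against 11.16 and 12.42. The part of macrophage RNA in these levels was not tested. None of the members was higher in both MSC (FGF+) and osteoblasts than in both MSC (FGF-) and ES cells.

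**Figure D4:**
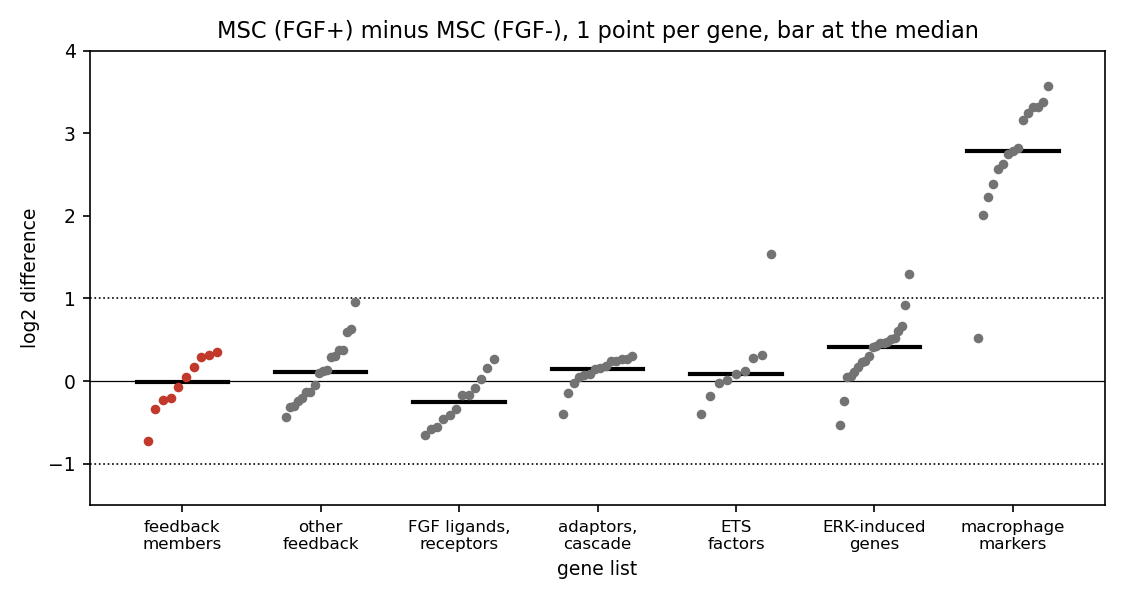
Log2 difference, MSC (FGF+) minus MSC (FGF-), of each measured gene in the feedback members, 5 further pathway lists and the macrophage markers, with 1 point per gene, a bar at the median and dotted lines at 2-fold. The feedback members lie at a median of -0.01, the ERK-induced genes at 0.42 and the macrophage markers at 2.78.

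Likeness of pattern was measured as the root mean square difference of gene-centred levels over the 4 arrays, where smaller is more alike. Among the members, Spred2 and Dusp6 were the closest pair, at 0.15, and Spry1 and Dusp5 the farthest, at 1.27. Spry2 and Spry4 lay 0.29 apart. Outside the members 11186 named genes were compared. The closest to Spry4 were Gap43, a growth cone protein, at 0.10 and the sulfotransferase gene Chst15 at 0.13, and 5 genes lay within 0.2. Dusp5 had Tbpl1 at 0.05 and the kinase gene Tnk2 at 0.10, with 25 genes within 0.2. For Dusp4 the closest were Mrpl11 and Snhg16, and for Dusp6 Mrpl9 and St13, with 87 and 1123 genes within 0.2. Spry1 was closest to Pitpnc1 and Dennd6a, Spry2 to the splicing factor gene Srsf1 and to Prickle1, and 182 and 143 genes lay within 0.2. Spred1 was closest to Braf and Trib1, Spred2 to Zbtb8os and Zfp142, Etv4 to Psrc1 and Esco1, and Etv5 to Apln and Tmem198b, each with 602 to 1726 genes within 0.2. With 4 arrays such likeness is common, and it is a description of these arrays.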

How the data were processed

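Cultured mouse cells of 4 groups were measured with 1 array each. The deposited log2 levels were made by the authors with Affymetrix Expression Console and RMA, per the submitters' processing notes. That the scale is log2 was read from the range of values, 1.40 to 14.28. RMA holds the distributions of arrays together, and no source used here names the software versions or the build behind the array annotation. Of 35556 probe sets 21789 had a single symbol in the platform annotation and were used, and 999 of 19938 genes had several.

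Genes were kept for a pair of arrays when the greater of their levels exceeded the floor of that array. Differences were counted at 2-fold. The counting code was run on simulated data with less noise than the SD between probe sets and with shifts above 2-fold in genes well above the floor. That checks the code only and gives no rate of false or missed calls in these arrays. The members and gene lists were chosen with earlier results of these data known. All members are named, with pathway list genes at 2-fold or at the largest difference in MSC (FGF+) minus MSC (FGF-), and the 2 genes nearest in pattern. Cell type markers are given mainly as counts, with only some of the genes named. List and marker genes given for other pairs are a few of those at 2-fold, picked after their values were seen. In the pattern search predicted and receptor genes were left out. Promoter motifs were chosen after seeing the data. Alternatives were the mean of probe sets, centring, a loess curve (span 0.3), repeated quantile normalization, other floors and other folds. Python 3.11.15, numpy 2.4.6, pandas 2.3.3 and statsmodels 0.14.6 were used.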

Additional observations from a re-analysis of the deposited data

How the results depend on the processing

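No paired analysis was possible because each group had 1 array. The mean of probe sets, centring, removal of a loess curve and repeated quantile normalization gave 240 differences of members over the 6 pairs of arrays. All 240 moved by less than the SD between probe sets, at most by 0.26, and 8 changed sign, all from differences under 0.2 in size. Under the mean of probe sets only Spred2 and Etv5 could move, so the other members are unchanged there by construction. The largest move, in MSC (FGF+) minus ES cells, exceeds the SD taken from the quartiles, 0.20 for that pair. In MSC (FGF-) minus osteoblasts Etv4 was -0.01 when centred, and Spred1 and Etv5 were -0.07 and -0.00 with a loess curve removed. In MSC (FGF+) minus ES cells Spred1 was -0.05, -0.12 and -0.07 when centred, with a loess curve removed and with repeated quantile normalization. Spred2 in MSC (FGF-) minus ES cells was -0.04 with a loess curve removed, and Etv5 in MSC (FGF+) minus osteoblasts 0.11 by the mean of probe sets. The second probe set of Etv5, an alternative chosen after seeing the data, moved 2 of 6 differences by more than the SD between probe sets, at most by 0.53.

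Counts of members depended on the fold. At 1.5-fold 5 members were higher and 1 lower in MSC (FGF+) minus osteoblasts, where 2146 and 1989 of 10798 genes were. In MSC (FGF-) minus osteoblasts 5 were higher and 1 lower, where 2345 and 2273 of 10973 genes were. In MSC (FGF+) minus ES cells 1 was higher and 4 lower, where 2631 and 1966 of 10932 genes were. In MSC (FGF-) minus ES cells 1 was higher and 4 lower, where 2599 and 2177 of 10977 genes were. In osteoblasts minus ES cells 6 were lower, where 2147 of 10927 genes were, and in MSC (FGF+) minus MSC (FGF-) 1 was. At 4-fold 1 member, Dusp5, was higher in MSC (FGF+) minus osteoblasts, where 115 of 10798 genes were. In the other pairs and directions 0 members passed, where between 1 and 588 genes above the floor did. With a loess curve removed 0 members were 2-fold higher in MSC (FGF+) minus ES cells, since Dusp5 was then at 0.98. There 4 were lower in place of 3 with a loess curve removed or with repeated quantile normalization, the added one being Etv5. In MSC (FGF-) minus ES cells 2 members were 2-fold lower when centred, with a loess curve removed or with repeated quantile normalization, the added one being Spry2 at -1.02, -1.12 and -1.04.

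Over all genes, 49 were 2-fold lower in MSC (FGF+) than in MSC (FGF-), and 189 with no floor or 103 with a floor at the 95th percentile of olfactory and vomeronasal receptor genes. At 1.5-fold 781 were higher and 350 lower, and at 4-fold 160 and 1. Centring, for a median of 0.12, gave 1006 higher and 1336 lower genes in MSC (FGF+) minus ES cells, against 1236 and 1156.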

Other observations

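Several feedback genes outside the 10 members had patterns of their own against the controls. Il17rd (Sef), a membrane inhibitor of FGF signalling, stood at 5.19 in MSC (FGF+) and 5.51 in MSC (FGF-), both under the floor, against 6.62 in osteoblasts and 8.96 in ES cells. Dusp9, a cytoplasmic phosphatase of ERK related to Dusp6, stood at 6.33, 6.38, 6.63 and 9.12 in the same order. Spry3, the Sprouty gene that is not a member, stood at 6.29 in MSC (FGF+) and 6.53 in MSC (FGF-), against 4.45 in osteoblasts and 4.46 in ES cells, so that of its 4 levels the one in MSC (FGF-) lay above the floor. Errfi1, a feedback inhibitor of the EGF receptor, was higher than in osteoblasts by 1.21 in MSC (FGF+) and by 1.52 in MSC (FGF-), and Rasa1 by 1.13 and 1.57. Dusp7, a cytoplasmic phosphatase of ERK, went the other way, at -0.87 in MSC (FGF+) and -1.46 in MSC (FGF-) minus osteoblasts, and at -0.44 and -1.03 minus ES cells.

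Among ERK-induced genes, Fosl1 stood at 8.24 in MSC (FGF+) and 7.64 in MSC (FGF-), and under the floor in osteoblasts and ES cells at 5.98 and 6.29. Myc stood at 11.03 in MSC (FGF+) and 10.78 in MSC (FGF-), against 9.07 in osteoblasts and 9.05 in ES cells. Both genes were thus higher in the MSC arrays than in the control arrays, as Dusp5 was, with differences of 0.61 and 0.25 between MSC (FGF+) and MSC (FGF-).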
